A study of Mus musculus with 16 samples.

Results

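The 39 genes described here belong to glycolysis, to the fate of pyruvate and to the sensing of oxygen. They were chosen by name, as the lines of the count table whose gene name is on the list, and each of them stood on 1 line among the 46078 genes of the table. They fall into 9 roles, which are glucose uptake, hexokinases, upper glycolysis, lower glycolysis, lactate, the bifunctional PFKFB enzymes, pyruvate dehydrogenase kinases, the entry of pyruvate into mitochondria, and oxygen sensing. Of the 39 genes, 38 passed the filter on low counts and were tested, and Slc16a3 did not pass.

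Glycolysis splits glucose into pyruvate in the cytosol. Pyruvate is then either reduced to lactate by lactate dehydrogenase or carried into mitochondria and turned into acetyl-CoA by the pyruvate dehydrogenase complex, which pyruvate dehydrogenase kinases switch off. When oxygen is scarce, the transcription factor HIF-1 raises many genes of glycolysis, and quiescent hematopoietic stem cells (HSCs) of the bone marrow are known for a metabolism that leans on glycolysis.

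RNA was sequenced from 16 samples of mouse HSCs, which the study sorted by MAC-1, the integrin made of CD11b (Itgam) and CD18 (Itgb2), to compare HSCs in steady state (SS) with HSCs of regenerating marrow. All samples were wild type, of strain B6.SJL, and were live bone marrow cells with the LSK SLAM phenotype (lineage-, cKit+, Sca1+, CD48-, CD150+) from cKit-enriched marrow. The SS MAC-1- (n = 3) and SS MAC-1low (n = 3) HSCs came from mice that had received no transplant. The 4 week MAC-1- (n = 3), MAC-1low (n = 4) and MAC-1+ (n = 3) HSCs were donor cells isolated 4 weeks after 8000 LSK cells had been transplanted into recipients irradiated with 900 cGy, so that MAC-1+ HSCs have no SS counterpart here. The age of the mice is not given in the labels, and they do not say that samples of a population came from separate mice, so that the p-values below measure the spread between these samples.

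Total counts ran from 13781278 to 28580658 per sample, and 14533 to 17576 genes had at least 1 count. A count of 0 in a sample allows up to 3 counts, or 0.112 to 0.220 CPM (counts scaled to a common library size), and covers counting error only. Summed over 8 HSC marker genes, the level was 690.5 to 890.0 CPM in 4 week MAC-1- samples and between 1477 and 3457 CPM in all others. Pf4, a platelet chemokine made by megakaryocytes, had a mean of 4957 CPM in 4 week MAC-1- samples and of at most 755.3 CPM in the other populations. These are bulk samples, in which fewer cells of a type and less RNA per cell cannot be told apart.

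The 39 genes were measured at very different levels. Per length, as CPM per kilobase of the longest protein-coding transcript, Mpc2, a subunit of the carrier that brings pyruvate into mitochondria, had the highest median level over the 16 samples, 353.9. Ldha followed with 244.3, Mpc1 with 197.2, Gapdh with 152.2, Pdhb with 125.0 and Aldoa with 96.1 CPM per kilobase. Per length the median was 26.4 for Pkm and 45.3 for Pgk1, but 0.167 for Pdk2 and 0.840 for Hk3, and Pdk4 and Slc16a3 had a median of 0. In all, 29 of the 39 members had counts in every sample, and 10 (Hk3, Aldoc, Eno1, Eno2, Slc16a3, Pfkfb4, Pdk2, Pdk4, Egln1 and Egln3) had at least 1 sample at 0.

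**Figure D1:**
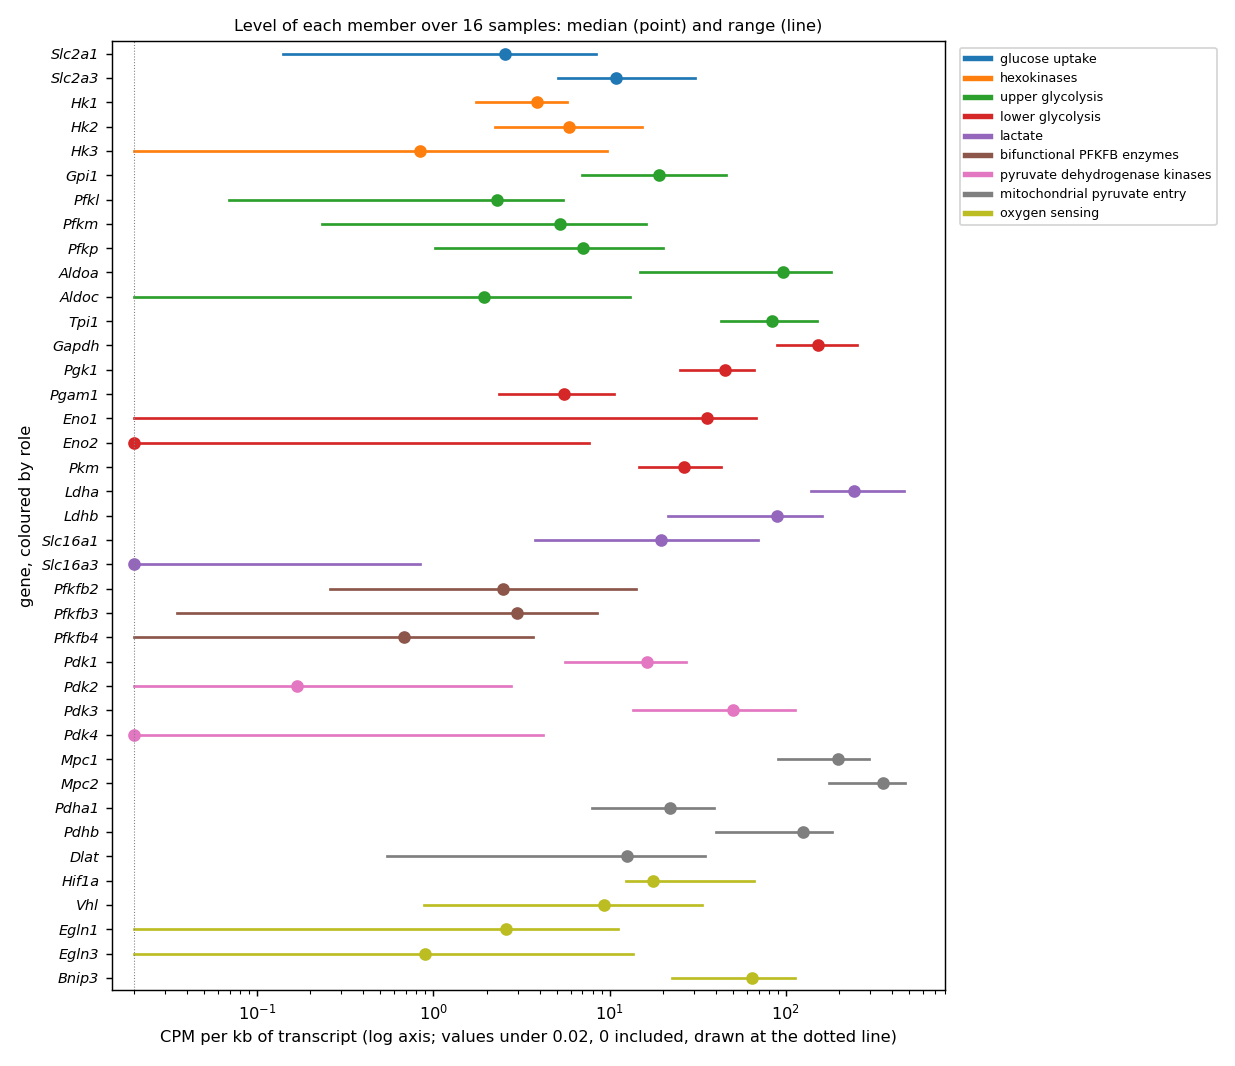
Level of each of the 39 genes as CPM per kilobase of transcript on a log axis, with the median (point) and the range (line) over 16 samples, coloured by role. Mpc2 at 353.9 and Ldha at 244.3 had the highest medians, and the lines of genes such as Eno1 and Egln3 reach down to samples with no count.

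When MAC-1+ HSCs were compared with MAC-1- HSCs at 4 weeks, both genes of the lactate dehydrogenase subunits differed, in opposite directions. Ldha was lower in MAC-1+ HSCs and Ldhb was higher, and these were the only 2 of 38 tested members past the threshold, an adjusted p below 0.1 in edgeR's quasi-likelihood test with Benjamini-Hochberg adjustment. Of all 13661 genes tested, 3.25% passed it in this comparison. Between 4 week MAC-1+ and SS MAC-1- HSCs, Mpc1 was lower and Pdha1 higher in MAC-1+ HSCs, again 2 of 38, beside 2.36% of all genes. Both comparisons use the same 3 MAC-1+ samples. In a test for any difference among the 5 populations, Ldha alone passed (adjusted p = 0.055), beside 2.22% of all genes. Leaving out any 1 of the 4 week MAC-1- or MAC-1+ samples raised that adjusted p to between 0.102 and 0.179.

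**Figure D2:**
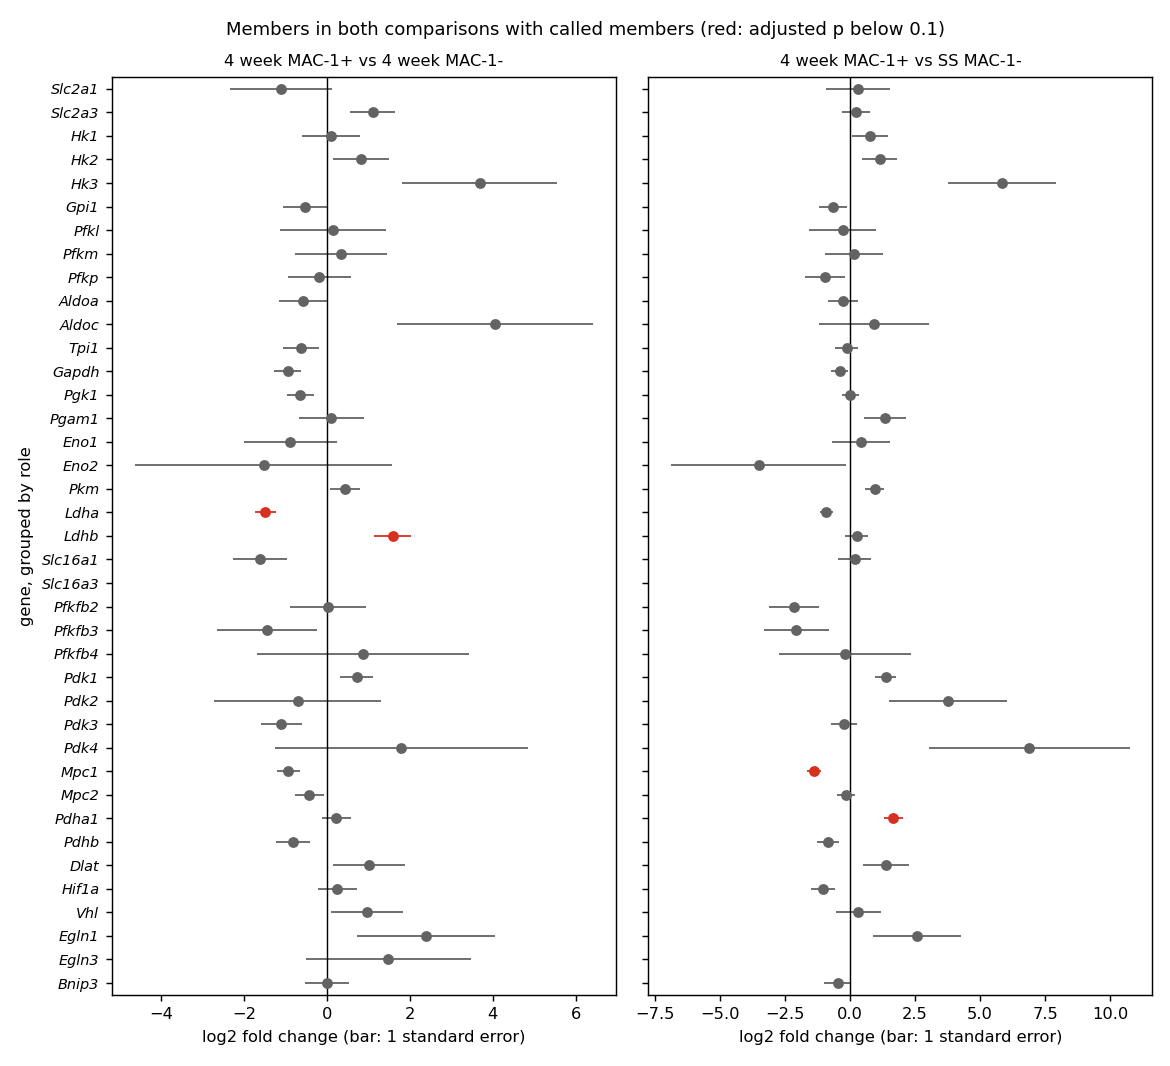
Log2 fold changes of the tested members for MAC-1+ HSCs at 4 weeks, set against 4 week MAC-1- HSCs (left) and SS MAC-1- HSCs (right), with bars of 1 standard error and red points for an adjusted p below 0.1 in edgeR's test. Ldha and Ldhb are red on the left and Mpc1 and Pdha1 on the right. Slc16a3 was not tested, and Egln3 is left out on the right because all SS MAC-1- samples were at 0.

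Ldha encodes the subunit of lactate dehydrogenase that is typical of glycolytic tissues, and it lies on chromosome 7 (46841475 to 46855627, plus strand, GRCm38). Its level was 843.9, 619.7 and 724.8 CPM in samples of 4 week MAC-1- HSCs and 270.3, 252.6 and 255.2 CPM in those of 4 week MAC-1+ HSCs. In 4 week MAC-1low HSCs it was 358.3, 474.7, 463.4 and 322.4 CPM. Its counts ran from 4021 to 16347 per sample. The MAC-1+ samples lay below every sample of the other 4 populations in CPM, and all 4 week MAC-1low samples lay between those of the other 4 week populations. SS MAC-1- samples had 631.8, 390.3 and 438.3 CPM, and SS MAC-1low samples 561.7, 277.6 and 448.4 CPM. The mean of 259.4 ± 9.60 CPM (SD, n = 3) in 4 week MAC-1+ against 729.5 ± 112.2 CPM (SD, n = 3) in 4 week MAC-1- HSCs gave a log2 fold change of -1.49 (SE 0.256, adjusted p = 0.00721).

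In edgeR's tests of the other pairs of populations and of the interaction Ldha did not pass the threshold. The log2 fold change was -0.85 (SE 0.233, adjusted p = 0.287 in edgeR's test) for 4 week MAC-1low against 4 week MAC-1- HSCs, although the samples did not overlap. It was -0.91 (adjusted p = 0.106 in edgeR's test) when SS MAC-1- HSCs were the baseline of 4 week MAC-1+ HSCs, and 0.58 (adjusted p = 0.449) when they were that of 4 week MAC-1- HSCs.

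Ldhb encodes the subunit typical of oxidative tissues such as the heart (chromosome 6, 142490249 to 142507957, minus strand). Its 4 week MAC-1- samples were at 64.8, 27.8 and 50.7 CPM, and its 4 week MAC-1+ samples at 142.1, 112.7 and 174.6 CPM. The 4 week MAC-1low samples were at 53.7, 118.7, 142.4 and 101.1 CPM. MAC-1- and MAC-1+ samples did not overlap, while 1 MAC-1low sample reached into the range of the MAC-1- samples. SS MAC-1low HSCs had the highest mean of the 5 populations, 190.9 ± 17.2 CPM (SD, n = 3), and SS MAC-1- HSCs varied from 70.7 to 202.5 CPM. Between MAC-1+ and MAC-1- HSCs of the 4 week mice the difference was a log2 fold change of 1.58 (SE 0.443, adjusted p = 0.0924 in edgeR's test). This call was near the threshold, and 15 of 23 alternative fits lost it, with an adjusted p of up to 0.326 without 4 week MAC-1- replicate 2.

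Both genes can be read as a ratio within a sample, which does not depend on the library size. This ratio was chosen after the values had been seen and is given as a description. Ldha had 13.0, 22.3 and 14.3 times the counts of Ldhb in 4 week MAC-1- samples, and 1.90, 2.24 and 1.46 times in 4 week MAC-1+ samples. The 4 week MAC-1low samples lay between them with 6.67, 4.00, 3.25 and 3.19. In SS the ratios were 3.12, 4.57 and 6.20 in MAC-1- and 2.97, 1.59 and 2.15 in MAC-1low HSCs. The highest ratio of any other population was thus 6.67, below all 3 of the 4 week MAC-1- samples. In SS the lowest MAC-1- ratio, 3.12, lay only slightly above the highest MAC-1low ratio, 2.97.

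**Figure D3:**
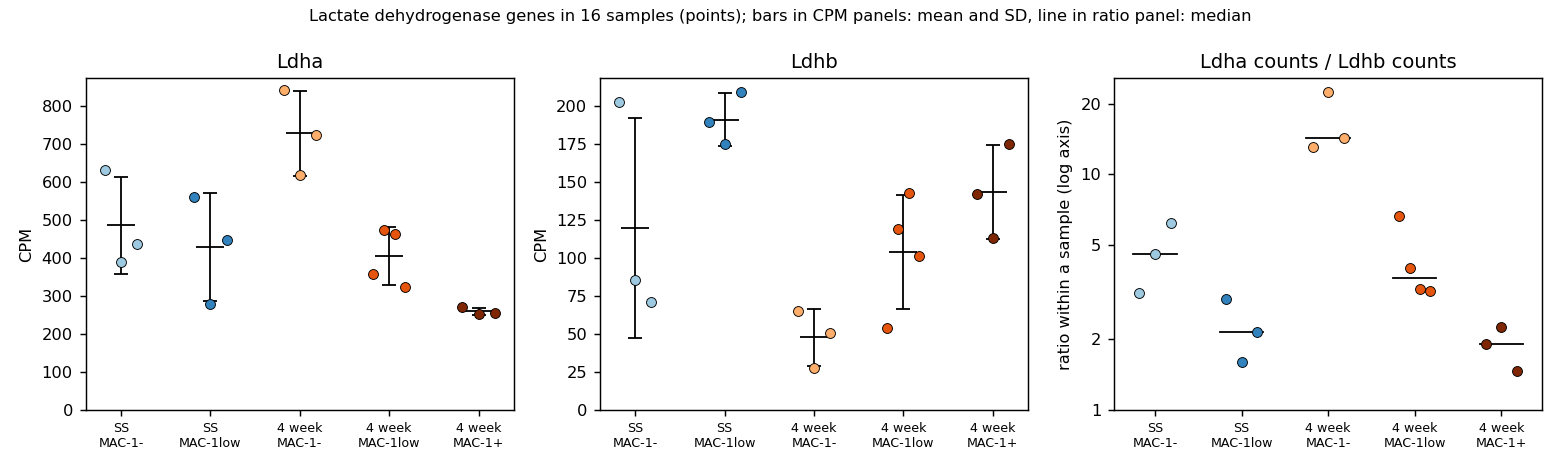
Ldha (left) and Ldhb (middle) in CPM, with each sample as a point and the mean and SD as bars, and the ratio of their counts within each sample on a log axis with the median as a line (right). The 4 week MAC-1- samples have Ldha at 619.7 to 843.9 CPM and ratios from 13.0 to 22.3, and the 4 week MAC-1+ samples have Ldha at 252.6 to 270.3 CPM.

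Genes outside the pathway also differed between the same 4 week populations. The summed level of 8 megakaryocyte markers was 4283 to 6748 CPM in 4 week MAC-1- and 156.3 to 201.6 CPM in MAC-1+ samples, and 3 of 7 tested markers were called lower in MAC-1+ HSCs, beside 3.25% of all genes called in either direction. Of 10 S and G2/M phase genes, 0 were called by edgeR (4 at an unadjusted p below 0.05), 2 by DESeq2 (11.6% of all genes) and 3 by limma-voom (6.52%), and their sum was 1924 to 2471 CPM in MAC-1- and 1049 to 1555 CPM in MAC-1+ samples. The part of either list in the levels of Ldha and Ldhb was not tested.

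The promoter windows of both genes are shown because the HIF-1 binding core, ACGTG or GCGTG, is a well known link between oxygen and the genes of this pathway. The windows run from 250 bases before to 50 bases after a start of the gene in RefSeq (GRCm38.p6), 5′ to 3′ on the strand of the gene, and capitals mark each ACGTG or GCGTG on either strand.

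Ldha chr7:46845554-46845853, plus strand: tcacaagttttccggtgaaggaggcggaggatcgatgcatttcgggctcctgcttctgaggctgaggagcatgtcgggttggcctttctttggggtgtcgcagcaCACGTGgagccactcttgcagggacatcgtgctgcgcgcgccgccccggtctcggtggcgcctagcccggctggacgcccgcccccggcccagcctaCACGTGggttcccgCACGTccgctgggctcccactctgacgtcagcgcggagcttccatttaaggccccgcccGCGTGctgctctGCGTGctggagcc
Ldhb chr6:142507908-142508207, minus strand: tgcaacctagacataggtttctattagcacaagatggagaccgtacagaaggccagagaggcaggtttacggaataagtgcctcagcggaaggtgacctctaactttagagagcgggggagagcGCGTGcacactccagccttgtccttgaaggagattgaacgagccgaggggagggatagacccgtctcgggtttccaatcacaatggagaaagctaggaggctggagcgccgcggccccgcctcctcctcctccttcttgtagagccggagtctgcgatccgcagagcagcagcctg

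The Ldha window held 5 matches to ACGTG, of which 4 are both strands of 2 CACGTG words, an E box letter sequence that contains ACGTG, and 2 matches to GCGTG. The Ldhb window held 1 match to GCGTG and 0 to ACGTG. A second RefSeq window of Ldha held 0 matches to ACGTG and 2 to GCGTG. RefSeq windows were found for 38 members. ACGTG occurred in a window of 23 of them (60.5%), beside 23.1% of 18413 genes of the table with a window, and GCGTG in 24 (63.2%) beside 40.9%. CACGTG occurred in 8 (21.1%) beside 8.84%. Members had more windows per gene, 55 for 38 members beside 22449 for the 18413 genes. Per window the shares were 49.1% beside 20.7% for ACGTG, 54.5% beside 37.8% for GCGTG and 14.5% beside 7.75% for CACGTG. The genes of the table were not matched to the members by expression or base content. A match is a run of letters in these windows, and binding was not measured.

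Slc16a1 encodes the lactate and pyruvate carrier MCT1 of the cell membrane. It was 309.1, 226.5 and 213.0 CPM in 4 week MAC-1- samples, and 16.7, 112.1 and 114.9 CPM in 4 week MAC-1+ samples. All 4 week MAC-1- samples lay above all other samples. The log2 fold change of MAC-1+ against MAC-1- was -1.62 (SE 0.644) and did not pass (adjusted p = 0.280 in edgeR's test, 0.0754 in limma-voom). In 4 week MAC-1low samples it was 203.3, 62.0, 82.5 and 87.1 CPM, and the SS samples ran from 26.1 to 99.2 CPM. Slc16a3, the lactate exporter MCT4 and a known HIF-1 target, was close to absent from the counts. Its highest count was 71, in SS MAC-1- replicate 3, and no other sample had more than 6.

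Of the 5 genes of pyruvate entry into mitochondria, Mpc1 and Pdha1 were the called ones. Mpc1, a subunit of the mitochondrial pyruvate carrier (chromosome 17, 8282904 to 8297661, plus strand), was 99.7, 109.9 and 86.5 CPM in 4 week MAC-1+ samples. It was 264.6, 283.0 and 215.8 CPM in SS MAC-1- samples and 198.9, 179.2 and 187.2 CPM in 4 week MAC-1- samples. The MAC-1+ samples lay below all samples of both MAC-1- populations and of 4 week MAC-1low HSCs, which ran from 135.1 to 226.3 CPM, and overlapped with 1 SS MAC-1low sample at 106.8 CPM. The log2 fold change was -1.37 against SS MAC-1- HSCs (SE 0.272, adjusted p = 0.0255 in edgeR's test). Against 4 week MAC-1- HSCs it was -0.93 (SE 0.270, adjusted p = 0.106 in edgeR's test), past the threshold with DESeq2 (0.0255) and limma-voom (0.0957).

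A processed copy of Mpc1, Mpc1-ps on chromosome 12 (110858565 to 110858894, minus strand), had counts of its own, which was noticed after the values had been seen. It took 17.5% to 22.8% of the summed counts of both in every sample, with 445 to 1241 counts. Its log2 fold change of 4 week MAC-1+ against SS MAC-1- HSCs was -1.44 (SE 0.423, adjusted p = 0.128 in edgeR's test). How the authors' counting split reads between near-identical copies is not given in the sources used here, so that the level of Mpc1 alone is uncertain to that extent. The other 7 named copies of members, among them Ldha-ps, Ldha-ps2 and Gapdh-ps14, had at most 20 counts in a sample.

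Mpc2, the partner of Mpc1 in the carrier, was not called in any comparison. It ran from 179.4 to 483.4 CPM in 4 week MAC-1+ samples, a range that held all of the SS and 4 week MAC-1- samples. The log2 fold change against SS MAC-1- HSCs was -0.14 for Mpc2 in this comparison, where Mpc1 was at -1.37.

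Pdha1 encodes the catalytic alpha subunit of pyruvate dehydrogenase, the one that the kinases phosphorylate (chromosome X, 160122209 to 160138413, minus strand). It was 33.0, 32.0 and 22.5 CPM in SS MAC-1- samples and 83.9, 111.6 and 81.3 CPM in 4 week MAC-1+ samples. Samples of 4 week MAC-1- HSCs had 80.2, 96.7 and 59.7 CPM, those of 4 week MAC-1low HSCs 49.8 to 92.7 CPM and those of SS MAC-1low HSCs 34.2, 51.1 and 60.2 CPM. All SS MAC-1- samples lay below all other samples. The log2 fold change of 4 week MAC-1+ against SS MAC-1- was 1.66 (SE 0.369, adjusted p = 0.0423 in edgeR's test). The call was lost without SS MAC-1- replicate 3 (adjusted p = 0.117) and without 4 week MAC-1+ replicate 2 (adjusted p = 0.122). Between 4 week MAC-1- and SS MAC-1- HSCs the log2 fold change was 1.44 (SE 0.366) with an adjusted p of 0.170 in edgeR's test.

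The other subunits of the complex were not called. Pdhb, the beta subunit that pairs with Pdha1, had a mean of 239.8 ± 9.06 CPM (SD, n = 3) in SS MAC-1- and of 133.3 ± 92.7 CPM (SD, n = 3) in 4 week MAC-1+ HSCs, where its samples were at 237.7, 102.0 and 60.4 CPM. Dlat, the acetyltransferase core, ran from 2.20 to 64.5 CPM in SS MAC-1- and from 54.0 to 139.9 CPM in 4 week MAC-1+ samples. For both, samples of these populations overlapped.

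**Figure D4:**
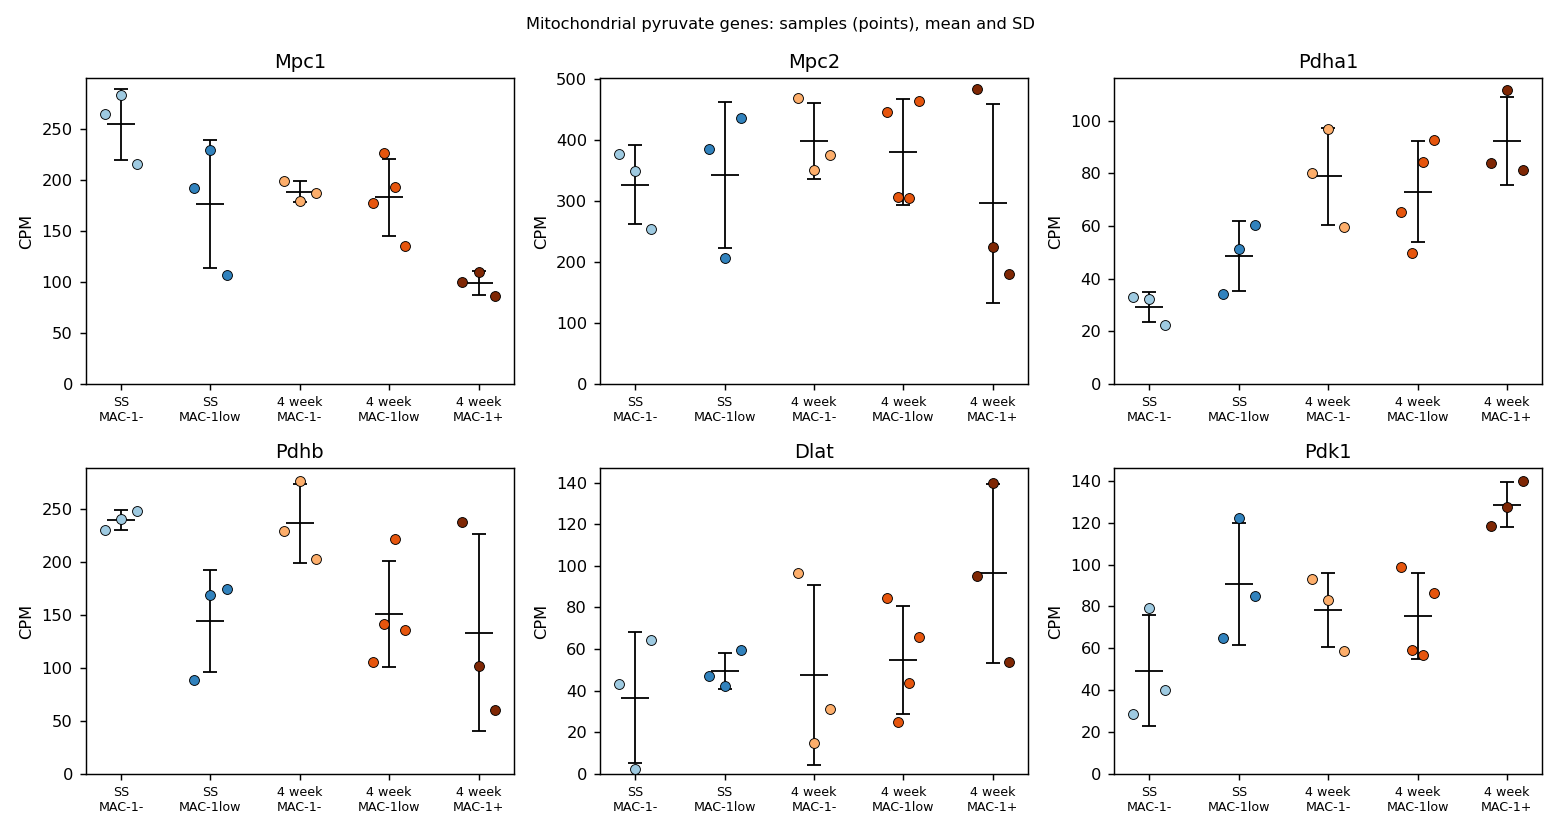
Mpc1, Mpc2, Pdha1, Pdhb, Dlat and Pdk1 in CPM, with each sample as a point and the mean and SD of each population as bars. The 4 week MAC-1+ samples lie at 86.5 to 109.9 CPM for Mpc1, and the SS MAC-1- samples lie at 22.5 to 33.0 CPM for Pdha1, below all other samples.

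Among the kinases that switch off pyruvate dehydrogenase, Pdk3 and Pdk1 carried nearly all counts. Pdk1, a HIF-1 target, was 118.4, 127.4 and 140.1 CPM in 4 week MAC-1+ samples and 93.2, 83.0 and 58.6 CPM in 4 week MAC-1- samples, with no overlap. SS MAC-1- samples were at 28.8, 79.2 and 40.0 CPM, also below all MAC-1+ samples. The log2 fold changes were 0.72 (SE 0.394, adjusted p = 0.461 in edgeR's test) and 1.38 (SE 0.399, adjusted p = 0.123), and neither passed. Pdk3 had means of 174.5 ± 62.9 CPM (SD, n = 3) in 4 week MAC-1- and 81.4 ± 46.2 CPM (SD, n = 3) in 4 week MAC-1+ HSCs, with overlapping samples (adjusted p = 0.361 in edgeR's test).

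Pdk2 and Pdk4 were measured at the edge of detection. Pdk2 had 0, 2 and 3 counts in SS MAC-1- samples, 1, 27 and 2 in SS MAC-1low, and 0, 4 and 102 in 4 week MAC-1- samples. In 4 week MAC-1low samples it had 1, 13, 54 and 77 counts and in 4 week MAC-1+ samples 19, 26 and 33. Pdk4, which is known as a kinase of fasting and of quiescent HSCs, was at 0 counts in 10 of 16 samples. Its counts were 0, 0 and 2 in SS MAC-1- samples, 24, 0 and 0 in SS MAC-1low and 0, 112 and 0 in 4 week MAC-1- samples. The 4 week MAC-1low samples had 24, 0, 0 and 0 counts and the 4 week MAC-1+ samples 0, 4 and 368, so that 1 sample held nearly all counts of its population. Neither kinase was called in any comparison.

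The glucose transporters were not called in any comparison either. Per kilobase of transcript, Slc2a3 (GLUT3) had a higher level than Slc2a1 (GLUT1), the transporter that HIF-1 is known to raise, in 15 of 16 samples. Slc2a1 had 162, 56 and 15 counts in SS MAC-1- samples, 51, 392 and 528 in SS MAC-1low, 165, 368 and 287 in 4 week MAC-1-, 166, 10, 141 and 129 in 4 week MAC-1low and 155, 147 and 70 in 4 week MAC-1+ samples. The 4 week MAC-1- samples, at 10.4 to 17.3 CPM, lay above all other 4 week samples, at 0.459 to 10.2 CPM. With a log2 fold change of -1.10 for MAC-1+ against MAC-1- HSCs the adjusted p was 0.808 in edgeR's test. Slc2a3 was 36.6, 120.1 and 38.2 CPM in 4 week MAC-1+ and 22.4, 24.7 and 44.0 CPM in 4 week MAC-1- samples, which overlapped.

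Hexokinases trap glucose in the cell as glucose 6-phosphate, and 3 of them were counted. Hk3, a hexokinase of myeloid cells, was 25.0, 30.9 and 27.1 CPM in 4 week MAC-1+ samples, against at most 9.26 CPM in all other samples. Its means were 0.481 CPM in SS MAC-1-, 1.73 CPM in SS MAC-1low, 2.16 CPM in 4 week MAC-1- and 5.30 CPM in 4 week MAC-1low HSCs. The log2 fold change against 4 week MAC-1- HSCs was 3.68 with a wide standard error of 1.86, and it did not pass (adjusted p = 0.415 in edgeR's test), while DESeq2 (0.0847) and limma-voom (0.0277) called it. The summed level of 8 neutrophil markers did not overlap between these populations either, with 164.1 to 7171 CPM in 4 week MAC-1+ and 23.1 to 69.3 CPM in 4 week MAC-1- samples, where Ltf, Lcn2, Retnlg and Elane were at 0 in every sample. In MAC-1+ HSCs 0 of the 8 markers were at 0 in every sample, and edgeR called 2 of 6 tested markers higher. Beside this, 3.25% of all genes were called in either direction. DESeq2 called 6 of these markers (11.6% of all genes) and limma-voom 1, Ngp (6.52%). Among the 3 MAC-1+ samples Hk3 ranged from 25.0 to 30.9 CPM and the sum of the neutrophil markers from 164.1 to 7171 CPM. A list of 8 monocyte and macrophage markers summed to 771.3 to 1086 CPM in MAC-1+ and 410.1 to 609.4 CPM in MAC-1- samples at 4 weeks. Of its 3 tested genes Ms4a6c was called higher by edgeR, beside the same 3.25% of all genes. Ms4a6c had means of 49.1 CPM in MAC-1- and 226.1 CPM in MAC-1+ HSCs. In the same order Ctss had means of 1.84 and 142.2 CPM, and Lyz2 of 449.8 and 497.4 CPM. Among the untested ones Ly6c2 had means of 0 and 36.1 CPM, and Csf1r, Ccr2, Fcgr1 and Adgre1 of at most 0.382 CPM in both. By the study's methods the sort took lineage- cells, with GR1, an antigen of mature neutrophils, among the lineage stains. CD11b, the stain behind the MAC-1 gates, was not one of the lineage stains. How far this sort left out mature neutrophils was not measured here. The part of either cell type in the level of Hk3 was not tested.

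Hk2, the hexokinase that HIF-1 and growth signals are known to raise, had 207, 259 and 605 counts in SS MAC-1- and 996, 947 and 743 in SS MAC-1low samples. At 4 weeks it had 607, 546 and 268 counts in MAC-1- samples, 677, 268, 523 and 1212 in MAC-1low and 299, 541 and 2128 in MAC-1+ samples. In CPM the SS populations did not overlap, with 13.6 to 31.0 CPM in MAC-1- and 38.3 to 53.0 CPM in MAC-1low HSCs (log2 fold change 1.26, SE 0.676, adjusted p = 0.584 in edgeR's test). Hk1, the hexokinase of most tissues, ran from 7.50 to 24.6 CPM over all samples, with the lowest mean in SS MAC-1- (11.6 CPM) and the highest in 4 week MAC-1+ HSCs (19.8 CPM).

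None of the 7 genes of upper glycolysis, from the isomerase of glucose 6-phosphate to triose phosphates, was called in any of the 10 tests by edgeR. Summed over these genes the level was 446.1 ± 14.8 CPM (SD, n = 3) in SS MAC-1-, 446.5 ± 95.8 CPM (SD, n = 3) in SS MAC-1low and 492.7 ± 93.8 CPM (SD, n = 3) in 4 week MAC-1- HSCs. It was 365.4 ± 75.9 CPM (SD, n = 4) in 4 week MAC-1low and 361.9 ± 121.2 CPM (SD, n = 3) in 4 week MAC-1+ HSCs. Most of these counts came from Aldoa, Tpi1 and Gpi1.

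Phosphofructokinase, the committed step of glycolysis, is made from the subunits of Pfkl, Pfkm and Pfkp. Pfkp had 402, 901 and 1617 counts in SS MAC-1- samples, 107, 675 and 866 in SS MAC-1low, 466, 762 and 584 in 4 week MAC-1-, 311, 497, 82 and 710 in 4 week MAC-1low and 410, 287 and 1132 in 4 week MAC-1+ samples. Its 4 week MAC-1- samples, at 28.9 to 35.3 CPM, lay above all 4 week MAC-1low samples, at 4.22 to 26.6 CPM (log2 fold change of MAC-1low against MAC-1- -0.78, adjusted p = 1.0 in edgeR's test). Pfkm ranged from 0.671 to 46.5 CPM within SS MAC-1low HSCs and Pfkl from 0.754 to 16.2 CPM within 4 week MAC-1+ HSCs. The mix of counts of these genes thus differed from sample to sample within a population. How much of this came from the measurement was not tested.

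Aldolase A (Aldoa) was counted in every sample, with 451 to 4636 counts, and the brain aldolase Aldoc in all but 2. Aldoc was 14.3, 14.1 and 16.7 CPM in 4 week MAC-1+ samples and 0.0628, 2.62 and 0 CPM in 4 week MAC-1- samples. These did not overlap, but the log2 fold change of 4.05 did not pass (adjusted p = 0.498 in edgeR's test, 0.0918 in limma-voom), and in SS MAC-1low HSCs alone Aldoc spanned 0.0559 to 36.4 CPM.

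Lower glycolysis turns triose phosphate into pyruvate and yields its ATP. Summed over 6 genes, the level was 365.2 ± 17.4 CPM (SD, n = 3) in SS MAC-1-, 567.8 ± 113.4 CPM (SD, n = 3) in SS MAC-1low, 584.4 ± 46.8 CPM (SD, n = 3) in 4 week MAC-1-, 441.9 ± 126.6 CPM (SD, n = 4) in 4 week MAC-1low and 373.9 ± 63.0 CPM (SD, n = 3) in 4 week MAC-1+ HSCs. SS MAC-1- and 4 week MAC-1+ samples were below all samples of 4 week MAC-1- HSCs. No gene of the role was called by edgeR in any of the 10 tests.

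Gapdh had 3236, 3583 and 4212 counts in SS MAC-1- samples, 5469, 3633 and 6705 in SS MAC-1low and 5080, 7509 and 5617 in 4 week MAC-1- samples. It had 2238, 7789, 4204 and 4237 counts in 4 week MAC-1low and 3087, 2020 and 5420 in 4 week MAC-1+ samples. In CPM, 146.6, 126.9 and 214.4 in 4 week MAC-1+ stood below 318.9, 284.7 and 339.2 in 4 week MAC-1- samples, with no overlap. This was a log2 fold change of -0.95 (SE 0.325, adjusted p = 0.194 in edgeR's test, 0.0953 in DESeq2). Gapdh is often used as a constant reference gene, and its population means here ran from 162.6 to 314.2 CPM. Pgk1, the ATP-forming kinase after it, was 79.1 to 120.5 CPM in 4 week MAC-1- and 45.5 to 76.6 CPM in 4 week MAC-1+ samples, again without overlap and without a call (log2 fold change -0.64, SE 0.334, adjusted p = 0.425 in edgeR's test).

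Pkm is the pyruvate kinase gene, whose isoforms PKM1 and PKM2 are not told apart in gene counts. Between the 4 week MAC-1+ and MAC-1- populations Pkm lay in the other direction than Gapdh and Pgk1. It was 67.5 to 91.8 CPM in MAC-1+ and 57.8 to 63.8 CPM in MAC-1- samples, without overlap and without a call by edgeR. It had 484, 994 and 747 counts in SS MAC-1- samples, 1547, 1153 and 1872 in SS MAC-1low, 920, 1586 and 1056 in 4 week MAC-1-, 1527, 1276, 2018 and 1179 in 4 week MAC-1low and 1933, 1361 and 1706 in 4 week MAC-1+ samples. In CPM, the SS MAC-1- samples at 35.5, 52.1 and 38.3 were below all SS MAC-1low samples (64.5 to 96.5 CPM) and all 4 week MAC-1+ samples (67.5 to 91.8 CPM). Against SS MAC-1- HSCs these were log2 fold changes of 0.94 (SE 0.361, adjusted p = 0.513 in edgeR's test) and 0.96 (SE 0.361, adjusted p = 0.255), neither of them past the threshold.

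The enolases and the mutase showed how unevenly single samples were measured. Eno1 had 0 counts in SS MAC-1- replicate 1 and 436 to 2661 counts in all other samples, and its copy Eno1b had at most 20 counts in any sample. Eno2, the neuronal enolase, was at 0 in 8 of 16 samples and had 416 counts in SS MAC-1low replicate 3. Pgam1 was 4.18 to 5.40 CPM in SS MAC-1- and 7.55 to 12.8 CPM in SS MAC-1low samples, which did not overlap, and was not called in that comparison by edgeR.

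The PFKFB enzymes make and break fructose 2,6-bisphosphate, the signal that drives phosphofructokinase. Pfkfb2 was 62.4, 21.9 and 23.3 CPM in SS MAC-1- samples, above all samples of 4 week MAC-1- HSCs (5.59 to 12.4 CPM), 4 week MAC-1+ HSCs (1.14 to 19.2 CPM) and SS MAC-1low HSCs (7.27 to 20.4 CPM). Its log2 fold changes against SS MAC-1- HSCs were -2.16, -2.14 and -1.32 in that order, with adjusted p of 0.456, 0.336 and 0.740 in edgeR's test. Pfkfb3, the isoform with the strongest kinase activity and a HIF-1 target, had 13, 205 and 76 counts in 4 week MAC-1+ samples and 363, 394, 594 and 291 in those of 4 week MAC-1low HSCs. Its CPM overlapped between them, and the log2 fold change of -1.90 had an adjusted p of 0.842 in edgeR's test. Pfkfb4 was at 0 in 4 samples and had at most 228 counts.

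Among the genes of oxygen sensing, Egln3 stood out by its absence from 1 population. EGLN enzymes are the prolyl hydroxylases that mark HIF-1 alpha for the ubiquitin ligase of VHL when oxygen is present, and Egln3 is itself a HIF target. Egln3 had 0, 0 and 0 counts in SS MAC-1- and 53, 646 and 60 in SS MAC-1low samples. At 4 weeks it had 8, 185 and 0 counts in MAC-1- samples, 199, 318, 39 and 12 in MAC-1low and 9, 267 and 97 in MAC-1+ samples. The 0 counts of SS MAC-1- HSCs were set to the floor of 3 counts per sample. Against this floor the mean was 79.1-fold higher in SS MAC-1low, 14.2-fold in 4 week MAC-1- and 39.6-fold in 4 week MAC-1+ HSCs. These folds allow for counting error only and are no minimum for the populations, since 1 sample held most of each mean. That sample was at 36.1, 7.01 and 16.8 CPM in that order. The others were at 2.8 and 3.1, at 0.50 and 0, and at 0.43 and 3.8 CPM. The 4 week MAC-1- sample at 0 showed no difference from SS MAC-1- HSCs. None of the differences between these populations and SS MAC-1- HSCs passed in edgeR's test (adjusted p = 0.409, 0.360 and 0.146). DESeq2 called all of them (1.11e-04, 0.00845 and 4.36e-04). Within each of the other populations the counts spread widely, from 53 to 646 in SS MAC-1low HSCs alone.

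Egln1, the main oxygen sensor of most cells, was 11.1, 40.1 and 36.9 CPM in 4 week MAC-1+ samples and at most 26.9 CPM elsewhere, with SS MAC-1- samples at 0, 11.6 and 3.13 CPM, and these overlapped. Hif1a had 2303, 1805 and 6073 counts in SS MAC-1- samples, 1709, 3187 and 1494 in SS MAC-1low, 1676, 1913 and 976 in 4 week MAC-1-, 1544, 1588, 1402 and 1605 in 4 week MAC-1low and 1533, 927 and 3805 in 4 week MAC-1+ samples. Its mean was highest in SS MAC-1- HSCs, 191.6 ± 110.2 CPM (SD, n = 3), and 75.0 to 114.8 CPM in the other populations. Hif1a was not called, and the log2 fold change of 4 week MAC-1- against SS MAC-1- was -1.28 (SE 0.475, adjusted p = 0.387 in edgeR's test). HIF-1 alpha is known to be controlled mainly through the stability of its protein, which was not measured. Vhl ran from 2.47 to 93.5 CPM and Bnip3, a HIF target of mitophagy, from 39.8 to 196.4 CPM, and neither was called.

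**Figure D5:**
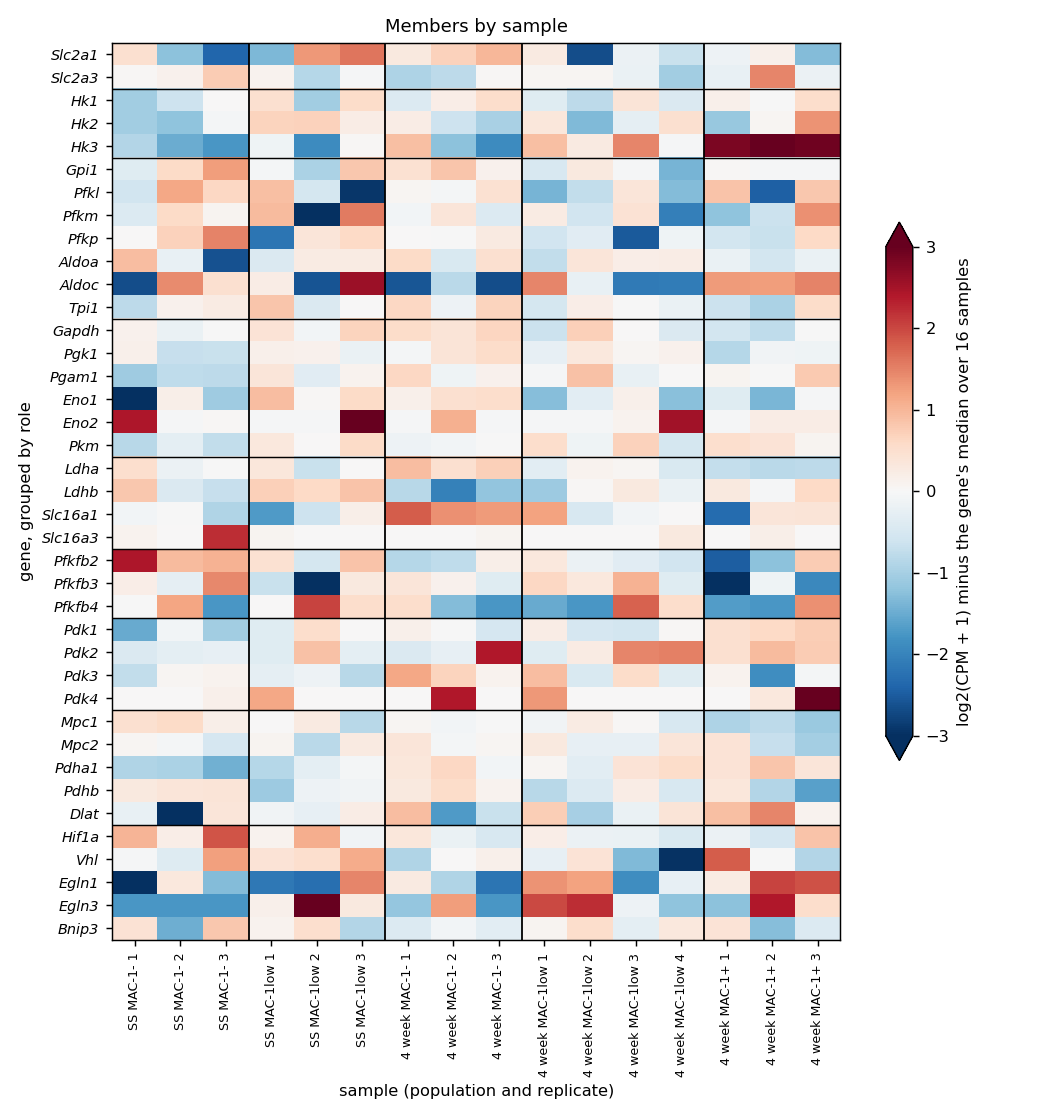
Each of the 39 genes (rows, grouped by role) in each of the 16 samples (columns), as log2(CPM + 1) minus the median of the gene over all samples, with the colour scale ending at -3 and 3. Hk3 is high in all 3 of the 4 week MAC-1+ samples, Slc16a1 in all 3 of the 4 week MAC-1- samples, and Eno1 is low in SS MAC-1- replicate 1, where it had 0 counts.

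The number of called members differed between tools, as did that of all called genes. In the contrast of MAC-1+ with MAC-1- HSCs at 4 weeks, DESeq2 called 5 of 38 members (Hk3, Gapdh, Ldha, Ldhb and Mpc1) beside 11.6% of all genes, and limma-voom 6 (Hk3, Aldoc, Ldha, Ldhb, Slc16a1 and Mpc1) beside 6.52%. With SS MAC-1- HSCs as the baseline of MAC-1+ HSCs, DESeq2 called 9 members (Hk3, Pgam1, Pkm, Ldha, Pfkfb2, Pdk1, Mpc1, Pdha1 and Egln3), beside 12.3%, and limma-voom 1, Mpc1, beside 1.62%. In the test for any difference DESeq2 called 9 (13.6%) and limma-voom 1, Ldha (2.66%).

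In the remaining 7 comparisons 0 of 38 members passed in edgeR's test. When MAC-1low was set against MAC-1- at 4 weeks, 0.278% of all genes passed and 2 members had an unadjusted p below 0.05 (7.25% of all genes). There DESeq2 (4.03% of all genes) and limma-voom (2.34%) each called 1 member, Ldha. For MAC-1+ against MAC-1low at 4 weeks, 0.0% of all genes passed and 2 members had an unadjusted p below 0.05 (6.85%). DESeq2 called 1 member, Mpc1 (3.17% of all genes), and limma-voom 0 (0.0366%).

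Within SS, MAC-1low against MAC-1- was passed by 0.0146% of all genes, and 3 members had an unadjusted p below 0.05 (9.36%). DESeq2 called 3 (Pgam1, Pkm and Egln3, beside 6.78%) and limma-voom 0 (0.0%). Between the MAC-1- populations of both settings 0.432% of all genes passed, and 7 members had an unadjusted p below 0.05 (10.4%). DESeq2 called 5 members (Pgam1, Ldhb, Pfkfb2, Pdha1 and Egln3, beside 7.81%) and limma-voom 0 (0.637%).

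Between the MAC-1low populations 0.0439% of all genes passed and 1 member, Ldhb, had an unadjusted p below 0.05 (8.89%). No member was called by DESeq2 (4.6%) or limma-voom (0.139%). MAC-1+ against SS MAC-1low was passed by 1.42% of all genes, and 4 members had an unadjusted p below 0.05 (12.1%). DESeq2 called 3 (Hk3, Mpc1 and Pdha1, beside 9.41%) and limma-voom 0 (0.908%). The interaction, which asks whether MAC-1low differs from MAC-1- in another way at 4 weeks than in SS, was passed by 0.0586% of all genes. There 1 member, Egln3, had an unadjusted p below 0.05 (8.73%) and was called by DESeq2 (5.28%), while limma-voom called 0 (0.132%).

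Counted by samples that did not overlap, 5 members were higher and 8 lower in MAC-1+ than in MAC-1- HSCs at 4 weeks, beside 10.2% and 11.5% of all genes. The 5 were Hk3, Aldoc, Pkm, Ldhb and Pdk1, and the 8 were Slc2a1, Gpi1, Gapdh, Pgk1, Eno1, Ldha, Slc16a1 and Mpc1. Between 4 week MAC-1low and MAC-1- HSCs 0 members were higher and 4 lower without overlap (Slc2a1, Pfkp, Ldha and Slc16a1), beside 5.23% and 5.53% of all genes. The median log2 fold change of the 38 members was 0.06 for 4 week MAC-1+ against MAC-1- HSCs, beside 0.07 over all genes tested, with 21 members positive and 17 negative. Its sign depended on single samples, since it was -0.47 (12 positive and 26 negative, all genes 0.0) without 4 week MAC-1+ replicate 3, -0.09 without 4 week MAC-1+ replicate 1, -0.10 without 4 week MAC-1- replicate 1 and -0.15 with the replicate number as a block. It was 0.42 for SS MAC-1low against SS MAC-1- HSCs, beside 0.00, and -0.54 for the interaction, beside 0.03, with 12 members positive and 26 negative. Without SS MAC-1low replicate 3 these medians were 0.07 (20 positive and 18 negative) and -0.25 (16 positive and 22 negative), and without 4 week MAC-1low replicate 4 that of the interaction was -0.34. The summed level of the 39 members was 3314 to 4062 CPM in 4 week MAC-1- samples and 2327 to 2768 CPM in 4 week MAC-1+ samples, which did not overlap. Such a sum mostly reflects the most abundant genes and not a shift of all members. Its means were 3627 and 2599 CPM, of which Ldha alone, a called gene, had 729.5 and 259.4 CPM.

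Other genes of the same pathways were taken from lists of 37 genes of glycolysis and pyruvate and 34 hypoxia genes in the table. Of 30 tested genes of glycolysis and pyruvate, 0 were higher and 1 lower in MAC-1+ than in MAC-1- HSCs at 4 weeks, a share close to the 3.25% of all genes. The lower one was Me2, the mitochondrial malic enzyme that makes pyruvate from malate, with 62.1 ± 40.0 CPM (SD, n = 3) in MAC-1- and 8.86 ± 7.29 CPM (SD, n = 3) in MAC-1+ HSCs (log2 fold change -2.81, SE 0.798, adjusted p = 0.0972 in edgeR's test). Against SS MAC-1- HSCs 1 of the 30 was higher and 0 lower, beside 2.36% of all genes. This was Tkt, the transketolase of the pentose phosphate pathway, with 10.4 ± 1.03 CPM (SD, n = 3) in SS MAC-1- and 48.1 ± 16.1 CPM (SD, n = 3) in HSCs of the 4 week MAC-1+ population (log2 fold change 2.22, SE 0.549, adjusted p = 0.0712 in edgeR's test). In the other 6 comparisons 0 of the 30 were called by edgeR, with 1 to 5 at an unadjusted p below 0.05 (6.85% to 12.1% of all genes), 1 to 4 called by DESeq2 (3.17% to 9.41%) and 0 by limma-voom (0.0% to 2.34%). limma-voom called neither Me2 nor Tkt in the comparisons above.

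Of 29 tested hypoxia genes, 2 were higher and 3 lower in MAC-1+ than in MAC-1- HSCs at 4 weeks, beside 3.25% of all genes called. Arnt encodes the HIF-1 beta partner of HIF-1 alpha. It had a mean of 0.713 ± 0.584 CPM (SD, n = 3) in 4 week MAC-1- HSCs. In HSCs of the 4 week MAC-1+ population its mean was 28.6 ± 23.9 CPM (SD, n = 3). The log2 fold change was 5.32 (SE 1.23, adjusted p = 0.0372 in edgeR's test). Arnt had 22, 12 and 5 counts in 4 week MAC-1- samples and only 37 in 4 week MAC-1+ replicate 2. The higher mean of Arnt thus rested mostly on 4 week MAC-1+ replicates 1 and 3. Txnip, an inhibitor of glucose uptake and of thioredoxin, rose from 81.9 ± 34.7 to 245.4 ± 35.4 CPM (SD, n = 3 each, adjusted p = 0.0231 in edgeR's test). The lower ones were Mif, a cytokine and HIF target, Higd1a, a mitochondrial protein induced by hypoxia, and Rbx1, a subunit of the VHL ubiquitin ligase. Mif fell from 829.4 ± 52.5 to 332.3 ± 59.1 CPM (SD, n = 3 each, log2 fold change -1.32, adjusted p = 0.00345 in edgeR's test). These 3 genes were also called lower in 4 week MAC-1+ than in SS MAC-1- HSCs, with log2 fold changes of -0.92 for Mif, -0.93 for Higd1a and -0.82 for Rbx1, a comparison that shares the MAC-1+ samples and in which 2.36% of all genes were called. Against SS MAC-1low HSCs, Mif (-0.96) and Rbx1 (-0.57) were called, beside 1.42% of all genes. In the other 5 comparisons, interaction left out, 0 of the 29 were called by edgeR, with 0 to 6 at an unadjusted p below 0.05 (6.85% to 10.4% of all genes), 0 to 5 called by DESeq2 (3.17% to 7.81%) and 0 to 3 by limma-voom (0.0% to 2.34%).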

How the data were processed

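RNA from sorted HSCs was copied with SMART-Seq v4, which keeps no molecular identifiers and no strand, and sequenced in 16 samples of 5 populations, mapped by their labels. The authors deposited counts, the whole number of reads per gene and sample with no normalization, from STAR alignments that nf-core v.1.4.2 produced. The sources used here do not name the counting program, genome build or annotation. Longer transcripts give more reads, and PCR copies are counted.

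The count table was analysed in R 4.3.3 with edgeR 4.0.16 (TMM, the filter on low counts at its default minimum of 10, robust quasi-likelihood test over all samples). Contrasts between populations were adjusted by the Benjamini-Hochberg method over 13661 genes, and a member was called at an adjusted p below 0.1 alone. CPM used the TMM factors. Gene positions and transcript lengths came from GENCODE M21 (GRCm38), which held 98.0% of the identifiers. The fits were also run on simulated data with 200 genes changed, a check of the code that does not bear on the results above. Plots were drawn with matplotlib 3.10.9. No line of the table lacks a gene name, and replicates differed by more than sampling noise.

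All 39 members may be named, called members and a fixed set of 10 with values in every sample, and of the lists of other pathway genes up to 6 called genes per comparison. The members and lists were chosen with earlier results of these data known. Alternatives were DESeq2 1.42.0, its size factors in edgeR, limma-voom (limma 3.58.1) with sample weights, no or a stricter filter (minimum 50), only the groups compared, the replicate number as a block, and leaving out each sample. The labels do not say whether samples with the same replicate number belong together.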

Additional observations from a re-analysis of the deposited data

Results flagged for a closer look

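In 4 week MAC-1low HSCs, the population with 4 samples, each of the 39 genes was checked with Dixon's test at the 95% level for a highest or lowest sample far from the rest, which chance flags in about 1 in 20 groups of spread values. There were 4 such values. Pgam1 was 18.78 CPM in replicate 2 (409 counts) and 8.23 to 9.89 CPM in the others. Eno2 was 4.909 CPM in replicate 4 (131 counts) and at most 0.103 CPM in the others. Slc16a3 was 0.2248 CPM in replicate 4 (6 counts) and 0 in the others, and Pdk4 was 1.471 CPM in replicate 1 (24 counts) and 0 in the others. With 3 samples at 0 any count in the remaining one is flagged, so that the chance rate does not apply to Slc16a3 and Pdk4 and their flags carry no weight. The other Eno2 samples lay under the floor of 3 counts, which is at least 0.112 CPM here. The flag of Eno2 thus also sets 1 sample against samples at the edge of detection.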

How the results depend on the processing

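Counts of called members depended mostly on the tool. DESeq2 called 5 members in MAC-1+ against MAC-1- HSCs at 4 weeks (Gapdh, Hk3, Ldha, Ldhb and Mpc1), 1 in MAC-1low against MAC-1- at 4 weeks, 1 in 4 week MAC-1+ against MAC-1low, 3 in SS MAC-1low against SS MAC-1-, 5 in MAC-1- HSCs at 4 weeks against SS MAC-1-, 9 in MAC-1+ HSCs against SS MAC-1-, 3 in MAC-1+ HSCs against SS MAC-1low, 1 in the interaction and 9 in the test of any difference. limma-voom called 6, 1, 1 and 1 in the first, second, sixth and last of these, and 0 in the others. With only the groups compared in the fit (fewer samples), 1 (Ldha) was called for MAC-1+ against MAC-1- at 4 weeks and 0 for MAC-1+ against SS MAC-1-. Without the filter, the test of any difference called 4. The cause of the differences between tools was not tested.

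Leaving out each sample gave 1 to 2 called members for MAC-1+ against MAC-1- at 4 weeks, 1 to 3 against SS MAC-1-, 0 to 1 against SS MAC-1low and 0 to 2 in the test of any difference, and 0 in the other comparisons. Ldha kept its call for MAC-1+ against MAC-1- at 4 weeks under all 23 alternatives, with log2 fold changes from -1.60 to -1.37 and adjusted p up to 0.0443. Of 2718 results for 12 single genes, 2665 kept their side of the threshold, 27 lost a call, 26 gained one and 0 reversed.

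Deviations of samples with the same replicate number correlated at -0.00109 to 0.0397, mostly above 0. Those of other samples correlated at -0.026 to 0.023, and all lay under the threshold of 0.1 set for pairing. In the order of the sample descriptions, 4 week MAC-1- replicate 2 stands beside MAC-1low replicate 3 (0.023) and MAC-1+ replicate 3 (-0.0105). There 4 week MAC-1- replicate 3 stands beside MAC-1low replicate 4 (0.0201). The block may thus not match samples handled together. With the replicate number as a block, 2 members were called for MAC-1+ against MAC-1- at 4 weeks (Ldha and Mpc1, with Ldhb at an adjusted p of 0.145), 2 against SS MAC-1-, 1 in the test of any difference and 0 elsewhere. Low genes are limited by detection, since 10 of the 39 members had a sample at 0.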
